A study of Rattus norvegicus with 12 samples.

Results

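The 4 genes described here, Mt1, Mt2A, Hamp and Tfrc, stand for metal binding and iron handling in the liver. They were taken as every probe set whose single gene symbol in the platform annotation was 1 of these 4 names, where a probe set is a group of short probes aimed at one transcript. This gave 5 of the array's 31099 probe sets, 1 each for Mt1, Mt2A and Hamp and 2 for Tfrc. All 5 had a standard deviation (SD) over 0.01 log2 across the 12 arrays and so counted as measured, which held for 3240 of the 31042 probe sets that are not controls of the manufacturer. Annotated genes with 1 symbol numbered 14217, of which 2301 had a measured probe set.

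RNA was taken from whole livers of male Sprague Dawley rats aged 9 weeks, 1 rat per array, after 28 days on a purified diet. The control group ate the AIN-93G diet, a standard rodent formula based on casein and corn starch. The low group ate that diet with 0.1% wakame powder and the high group ate it with 1% wakame powder, wakame being an edible brown seaweed. There were 4 arrays per diet. Per the series' design text 6 rats ate each diet and 3 shared a cage. The labels do not say which arrays came from one cage, so cage could not be entered in any fit, and they do not give the metal content of the diets.

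Metallothioneins are small cysteine-rich proteins that bind zinc, copper and cadmium. Their genes are switched on by the zinc-sensing factor MTF-1 through metal response elements, and in liver also by glucocorticoids, interleukin-6 and fasting. Hamp encodes hepcidin, the hepatocyte hormone that makes cells retain iron by removing the exporter ferroportin, and it is driven by BMP signals through SMAD proteins and by interleukin-6 through STAT3. Tfrc encodes transferrin receptor 1, which takes up transferrin-bound iron, and its mRNA is stabilised by iron regulatory proteins when cellular iron is low.

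Motifs of some known inputs to these genes were searched for in the stretches upstream of the annotated start of Mt1, Mt2A and Hamp. These stretches are shown for that reason and because 2 of the genes varied together. They are the 250 bases before the RefSeq start in the rat build GRCr8, all on the minus strand of the chromosome and printed 5′ to 3′ along the gene, at chr19:10832976-10833225 for Mt1, chr19:10838709-10838958 for Mt2A and chr1:95300272-95300521 for Hamp. In Mt1 and Mt2A the capitals mark the core of the metal response element, TGCACNC or TGCGCNC on either strand. In Hamp they mark GGCGCC, the core of the BMP response element, and then the STAT pattern TTCNNNGAA.
Mt1: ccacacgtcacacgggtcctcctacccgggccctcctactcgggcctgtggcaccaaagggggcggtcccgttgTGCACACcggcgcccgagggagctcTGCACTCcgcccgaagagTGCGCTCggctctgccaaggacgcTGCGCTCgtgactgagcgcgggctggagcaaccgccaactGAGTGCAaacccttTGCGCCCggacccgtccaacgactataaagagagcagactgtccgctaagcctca
Mt2A: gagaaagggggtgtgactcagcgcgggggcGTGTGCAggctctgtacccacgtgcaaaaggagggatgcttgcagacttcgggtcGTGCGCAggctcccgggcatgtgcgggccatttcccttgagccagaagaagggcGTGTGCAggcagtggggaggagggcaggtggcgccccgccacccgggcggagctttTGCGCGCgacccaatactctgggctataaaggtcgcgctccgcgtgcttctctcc
Hamp: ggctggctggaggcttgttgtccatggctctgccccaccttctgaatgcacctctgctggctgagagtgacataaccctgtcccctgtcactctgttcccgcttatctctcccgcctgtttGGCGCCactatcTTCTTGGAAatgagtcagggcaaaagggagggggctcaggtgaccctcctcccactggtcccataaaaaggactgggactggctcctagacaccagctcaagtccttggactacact

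Mt1 and Mt2A are neighbours on chromosome 19 with 0 annotated genes between them in RefSeq. The metal response core was found 6 times upstream of Mt1 and 4 times upstream of Mt2A. At least 1 copy stood in 20.6% of 33465 RefSeq promoter windows of the same length. At least 3 stood in 1.17%, at least 4 in 0.266% and at least 6 in 0.0269%. Tfrc, whose window was searched but is not printed, had 3 copies, 2 of them overlapping each other, and Hamp had 0. A TATA box core, TATAAA, lay 32 bases before the start in Mt1 and 31 before it in Mt2A, and 12.9% of windows held one. Each metallothionein gene also held 1 copy of TGACNNNGC, the core of the antioxidant response element, which stood in 10.1% of windows. The BMP core of Hamp began 129 bases before the start and the STAT pattern 117 before it. The BMP core stood in 8.7% of windows, those of Mt1, Mt2A and Tfrc among them, and the STAT pattern in 7.67%. The windows of Mt1, Mt2A and Tfrc held 0 copies of the STAT pattern, and no glucocorticoid element was searched for. None of the copies of different motifs overlapped. These are matches of letters and say nothing of which factor was bound in these livers.

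**Figure D1:**
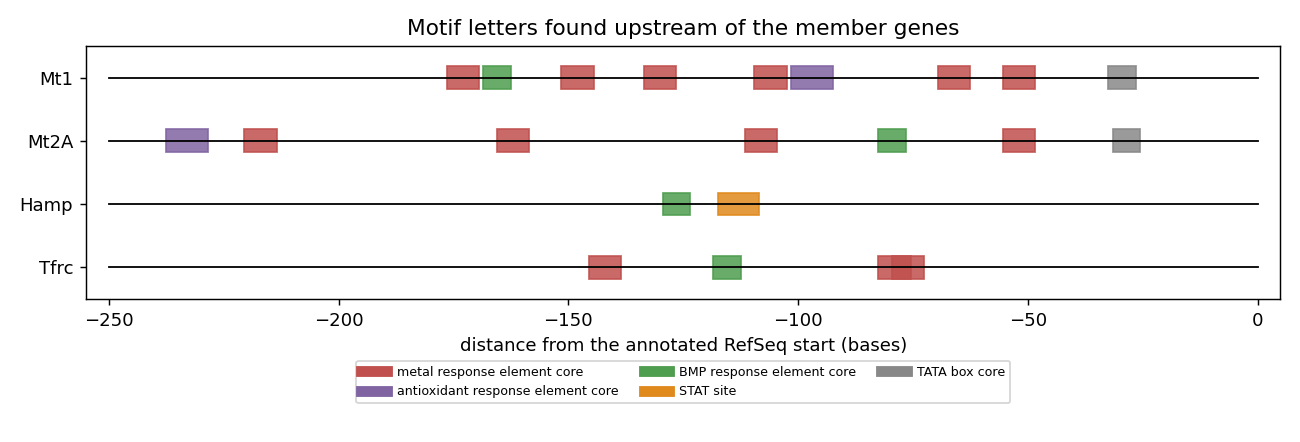
Positions of the motif letters in the 250 bases before the RefSeq start of each of the 4 genes, with distance from the start in bases on the horizontal axis and 1 row per gene. The metal response core is found 6 times in Mt1, 4 times in Mt2A, 3 times in Tfrc and 0 times in Hamp.

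On the 3240 measured probe sets, arrays of one diet correlated at 0.911 to 0.961, and no 2 arrays were identical. Of the hepatocyte markers, Apoa1 and Cps1 were measured, at 12.63 to 13.16 and 12.83 to 12.98 log2, while albumin (Alb) and transthyretin (Ttr) were listed at 14.61 and 13.96 log2 on all arrays and so counted as unmeasured. These levels do not measure the share of any cell type. Markers of cholangiocytes (4 genes with a probe set) and lymphocytes (7) were all flat, as were the erythroid genes Slc4a1, Ahsp and Epb42, and how flat values were made is not known. In such bulk tissue, fewer cells of a type and less RNA per cell cannot be told apart. Differences below are of mean log2 values from limma with a standard error (SE), and p-values are adjusted by Benjamini-Hochberg over all 3240 measured probe sets, with a threshold of 0.05. Of these probe sets, 54 (1.67%) passed for 1% wakame against control, 2 (0.0617%) for 0.1% wakame against control and 0 (0%) for 1% against 0.1% wakame, where 219 (6.76%) had an unadjusted p under 0.05. An F-test for any difference among the diets called 6 (0.185%). None of the 5 probe sets of the 4 genes passed in any of the 3 comparisons or in the F-test (lowest adjusted p = 0.142) with limma, while 4 of the 5 with the 1% diet against control had an unadjusted p under 0.05 and so had 18.5% of all measured probe sets. An exact permutation test of 4 arrays against 4 cannot give a two-sided p below 0.0286.

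Of the 2 metallothionein probe sets with a single gene symbol, that of Mt2A had the wider differences between diets. Its values were 7.04, 5.43, 9.97 and 6.75 log2 in control 1 to 4, 9.54, 9.90, 7.53 and 11.31 with 0.1% wakame, and 11.40, 12.09, 10.64 and 9.72 with 1% wakame. Control 3 lay above the lowest 1% wakame array, so these 2 diets overlapped, and the other 3 control arrays lay below all 1% wakame arrays. The means were 10.96 ± 1.02 with 1% wakame and 7.30 ± 1.92 in control (SD, n = 4 each), a difference of 3.67 ± 1.01 (SE, limma adjusted p = 0.0950, exact permutation p = 0.0571). This is a 12.7-fold ratio with a 95% interval from 2.70-fold to 59.7-fold. Without control 3 the difference was 4.56 and passed (limma adjusted p = 0.0447), and it did not pass when any other of the 8 arrays was left out. One control value, 5.43, lay below 6.59, the median of all deposited values, and no background measurement was available.

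Mt2A on the 0.1% diet averaged 9.57 ± 1.56 (SD, n = 4) and differed from control by 2.27 ± 1.01 (SE, limma adjusted p = 0.424, exact permutation p = 0.114). The array low 3, at 7.53, lay among the control values, and the other 3 were at 9.54 or above. The 1% diet differed from the 0.1% diet by 1.39 ± 1.01 (limma adjusted p = 0.872, exact permutation p = 0.200), an interval from −0.84 to 3.63 log2 that includes 0. This difference was 0.72 without low 3 and 0.46 with each array's difference between the 3-prime and 5-prime control probe sets of Gapdh, a sign of RNA integrity, as a covariate.

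The single-symbol probe set of Mt1 lay higher with the 1% diet on a much narrower scale. Its values were 6.52, 6.35, 6.81 and 6.47 log2 in control, 6.79, 6.80, 6.55 and 6.79 with 0.1% wakame, and 7.13, 7.05, 6.98 and 6.86 with 1% wakame. All 4 arrays of the 1% diet lay above all control arrays and above all arrays of the 0.1% diet. Of all measured probe sets, 5.22% lay higher without overlap for 1% wakame against control and 1.82% for 1% against 0.1% wakame. The means were 7.00 ± 0.11 with 1% wakame and 6.54 ± 0.20 in control (SD, n = 4 each), a difference of 0.47 ± 0.11 (SE, limma adjusted p = 0.0622, exact permutation p = 0.0286), or 1.38-fold with a 95% interval from 1.17-fold to 1.63-fold. Without control 3 the difference was 0.56 and passed (limma adjusted p = 0.0381), and it did not pass without any of the other 7 arrays. Between 1% and 0.1% wakame the difference was 0.27 ± 0.11 (limma adjusted p = 0.697), or 0.188 with the Gapdh covariate (limma adjusted p = 0.942). Between 0.1% wakame and control it was 0.19 ± 0.11 (limma adjusted p = 0.563). On 4 arrays, of which 3 were control and 1 was low 3, Mt1 lay below the median of all deposited values. Mt1 is also among the symbols of a shared probe set, described at the end. There 1% wakame minus control was 4.19 ± 1.29 (SE, limma adjusted p = 0.129). Whether that probe set read Mt1 was not tested.

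**Figure D2:**
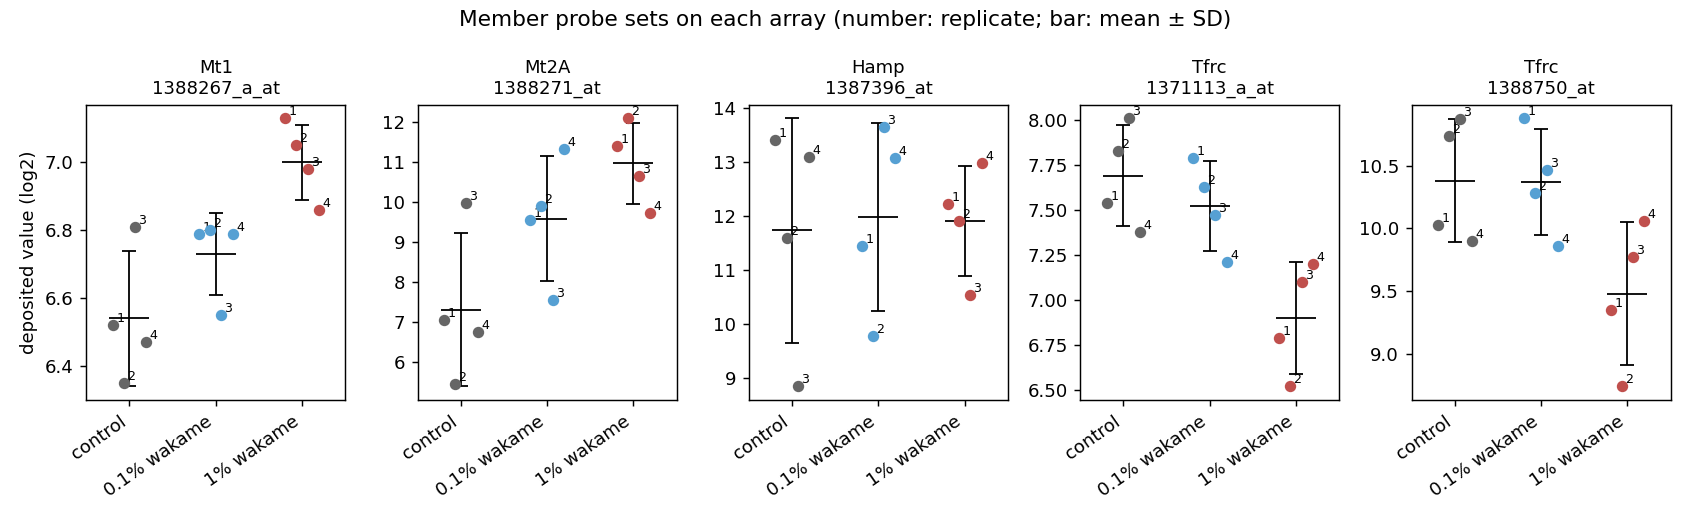
Deposited log2 values of the 5 probe sets (vertical axes, scaled to each probe set) on the 12 arrays by diet. Points are arrays with their replicate number, and bars are the mean ± SD of 4 arrays. Mt1 with 1% wakame (6.86 to 7.13) sits above all control arrays (6.35 to 6.81), Mt2A spans 5.43 to 12.09, and Hamp overlaps in all 3 diets. Both Tfrc probe sets have their lowest mean with 1% wakame, and in 1388750_at the array high 4 overlaps with the other diets.

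The metallothionein genes followed each other from rat to rat. Over the 12 arrays Pearson's r between Mt1 and Mt2A was 0.95 (permutation p = 2e-05, adjusted p = 7e-05 over 7 relations computed among the probe sets) and Spearman's rho was 0.90 (permutation p = 0.00024, adjusted p = 0.00084). Without control 2 and control 4, the arrays farthest from the median of Mt1, r was 0.90. After each diet's mean was removed it was 0.93 (permutation within diets p = 0.00164, adjusted p = 0.00574), so the relation also held among rats of one diet. In control 3 and low 3, the arrays that differed most from the rest of their diet, both genes moved the same way, up in control 3 and down in low 3. The genes are close paralogs, and whether probes of 1 gene also read RNA of the other was not tested.

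Hamp did not separate the diets. Its values were 13.42, 11.59, 8.85 and 13.10 log2 in control, 11.45, 9.78, 13.65 and 13.08 with 0.1% wakame, and 12.22, 11.92, 10.55 and 12.98 with 1% wakame. The ranges of the 3 diets overlapped, and the lowest value of all was control 3. The means were 11.92 ± 1.02 with 1% wakame and 11.74 ± 2.08 in control (SD, n = 4 each), a difference of 0.17 ± 1.09 (SE, limma adjusted p = 0.960, exact permutation p = 0.857). The 95% interval ran from −2.25 to 2.60 log2, or from 0.211-fold to 6.04-fold, so a change of several fold either way was not detectable with 4 rats a diet. The difference had the opposite sign, −0.79, without control 3 and was −0.18 without high 4. For 0.1% wakame, at 11.99 ± 1.74, against control it was 0.25 ± 1.09 (limma adjusted p = 0.961), and −0.71 without control 3.

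The rat-to-rat spread of Hamp was among the widest on the array. Its SD within diets was 1.67 log2, larger than in 99.2% of measured probe sets, and 25 probe sets had a larger one. Mt2A followed with 1.54 log2 (larger than in 99.0%), against a median of 0.206 over all measured probe sets. The single-symbol probe set of Mt1 had 0.15 log2, and the Tfrc probe sets had 0.28 and 0.50. The most extreme control array was the same for both of the widely spread genes, since control 3 had the lowest Hamp and the highest control Mt2A. Over all 12 arrays the 2 genes had a Pearson r of −0.29 (permutation p = 0.365, adjusted p = 0.365) and a Spearman rho of −0.31 (p = 0.318, adjusted p = 0.371), and r was −0.32 without control 2 and control 4.

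Tfrc lay lower with the 1% diet in both of its probe sets. In probe set 1371113_a_at the values were 7.54, 7.83, 8.01 and 7.38 log2 in control, 7.79, 7.63, 7.47 and 7.21 with 0.1% wakame, and 6.79, 6.52, 7.10 and 7.20 with 1% wakame. All 4 arrays of the 1% diet lay below all of the other 8, although high 4, at 7.20, was within 0.01 of low 4. Of all measured probe sets, 6.05% lay lower without overlap for 1% wakame against control and 1.94% for 1% against 0.1% wakame. The means were 6.90 ± 0.31 with 1% wakame and 7.69 ± 0.28 in control (SD, n = 4 each), a difference of −0.79 ± 0.19 (SE, limma adjusted p = 0.0659, exact permutation p = 0.0286), or 0.578-fold with a 95% interval from 0.433-fold to 0.773-fold. Against 0.1% wakame, at 7.52 ± 0.25, the 1% diet differed by −0.62 ± 0.19 (limma adjusted p = 0.547, exact permutation p = 0.0286).

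In the second probe set, 1388750_at, Tfrc was at 10.03, 10.74, 10.87 and 9.90 log2 in control, 10.88, 10.28, 10.47 and 9.86 with 0.1% wakame, and 9.35, 8.74, 9.77 and 10.06 with 1% wakame. Here high 4 lay above control 1, control 4 and low 4, and the other 3 arrays of the 1% diet lay below all of the other 8. The difference was −0.90 ± 0.33 for 1% wakame against control (SE, n = 4 each, limma adjusted p = 0.191, exact permutation p = 0.0857) and −0.89 ± 0.33 for 1% against 0.1% wakame (limma adjusted p = 0.646, exact permutation p = 0.0571). The 0.1% diet was close to control in both probe sets, at −0.17 ± 0.19 in 1371113_a_at (limma adjusted p = 0.806) and −0.012 ± 0.330 in 1388750_at (limma adjusted p = 0.996). The 95% intervals of these 2 differences, −0.59 to 0.25 and −0.74 to 0.72 log2, do not show that the diets were alike. With single arrays left out the first ranged from −0.27 to −0.06, the lowest without control 4 and the smallest in size without control 3 or low 4, and without low 1 it was −0.26. With the Gapdh covariate the difference for 1% against 0.1% wakame was −0.48 in 1371113_a_at and −0.59 in 1388750_at.

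**Figure D3:**
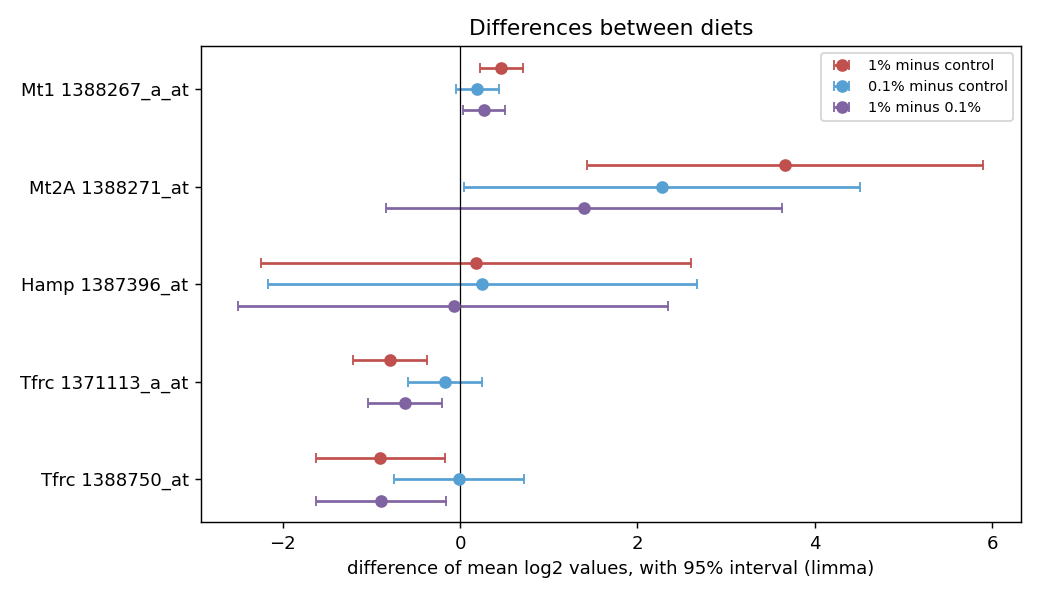
Differences of mean log2 values between diets (horizontal axis) for the 5 probe sets (rows), with 95% intervals from limma over 4 arrays per diet. For 1% wakame minus control the intervals lie above 0 for Mt1 and Mt2A, below 0 for both Tfrc probe sets, and from −2.25 to 2.60 for Hamp, and none of the 15 differences passed after adjustment over 3240 probe sets.

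The 2 Tfrc probe sets followed each other from rat to rat without giving the same order, with a Pearson r of 0.96 over 12 arrays (permutation p = 1e-05, the smallest the 100000 permutations could give, adjusted p = 7e-05), a Spearman rho of 0.91 (permutation p = 0.00017, adjusted p = 0.00084), 0.90 for Pearson's r without high 1 and high 2, and 0.96 after diet means were removed (permutation p = 0.00042, adjusted p = 0.00294). Tfrc in 1388750_at and Mt2A had a Pearson r of −0.54 (permutation p = 0.0693, adjusted p = 0.121) and a Spearman rho of −0.60 (permutation p = 0.0427, adjusted p = 0.0996). That relation was −0.58 without control 2 and control 4 but −0.27 after diet means were removed (permutation p = 0.450, adjusted p = 0.524). Tfrc and Mt1 had r = −0.56 (permutation p = 0.0553, adjusted p = 0.121), rho = −0.54 (permutation p = 0.0743, adjusted p = 0.130), −0.60 for r without control 2 and control 4, and −0.09 after diet means were removed (permutation p = 0.811, adjusted p = 0.811). Hamp and Tfrc had r = −0.30 (permutation p = 0.349, adjusted p = 0.365) and rho = −0.26 (permutation p = 0.415, adjusted p = 0.415), and r was 0.03 without control 3 and low 2. Mt1 and Hamp had r = −0.31 (permutation p = 0.318, adjusted p = 0.365) and rho = −0.37 (permutation p = 0.240, adjusted p = 0.336), and r was −0.34 without control 2 and control 4. With diet means removed, Hamp had r = −0.63 with Mt1 (permutation p = 0.0881, adjusted p = 0.205), −0.50 with Mt2A (permutation p = 0.200, adjusted p = 0.321) and −0.40 with Tfrc (permutation p = 0.229, adjusted p = 0.321). The receptor and the hormone of iron handling showed no relation past the threshold after adjustment with the metallothioneins or with each other.

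**Figure D4:**
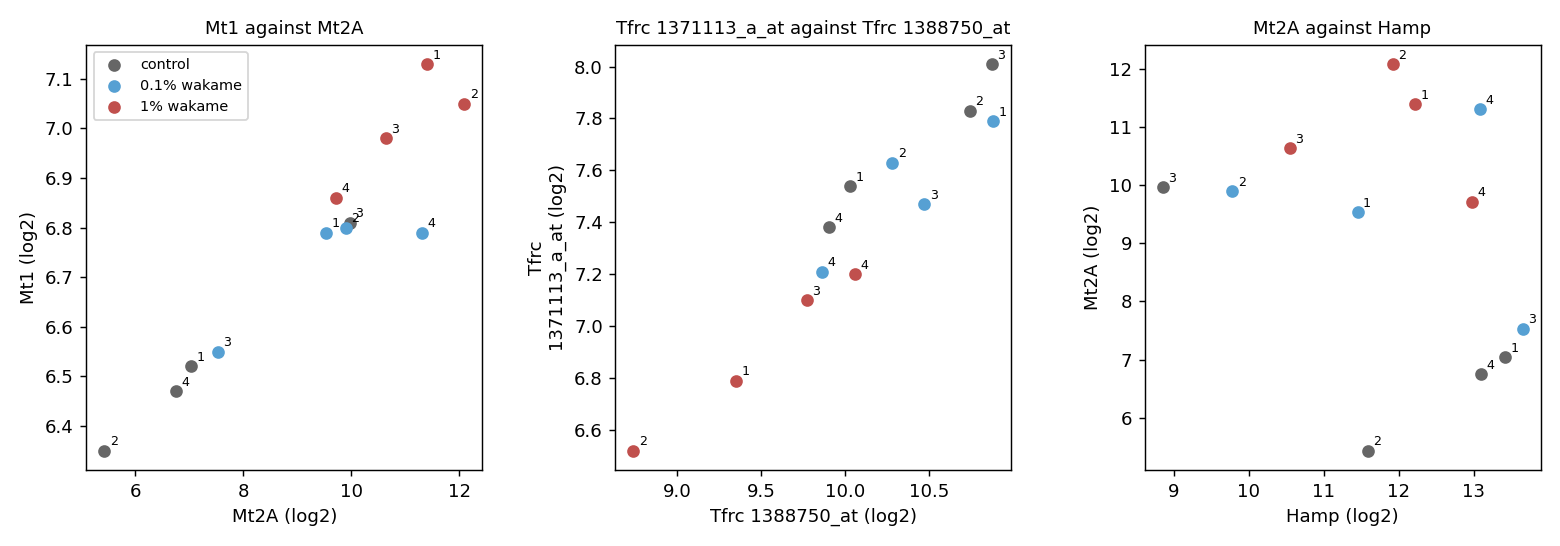
Pairs of probe sets over the 12 arrays, in log2, coloured by diet and marked with the replicate number. Mt1 against Mt2A (r = 0.95) and the 2 Tfrc probe sets (r = 0.96) lie along a line, and Mt2A against Hamp (r = −0.29) does not.

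A sign of RNA integrity was wider on most arrays of the 1% diet. The difference between the 3-prime and 5-prime control probe sets of Gapdh ran from 1.04 to 1.07 log2 in control, from 0.958 to 1.20 with 0.1% wakame and from 1.04 to 1.42 with 1% wakame. The array with the widest such difference, high 2, also had the highest Mt2A and the lowest Tfrc. With this difference as a covariate, 1% wakame minus control was 2.54 for Mt2A (limma adjusted p = 0.425), 0.36 for Mt1 (0.296), −0.62 for Tfrc in 1371113_a_at (0.302) and −0.54 in 1388750_at (0.653). On high 1, high 2 and high 3 the Gapdh difference, at 1.22, 1.42 and 1.17, lay above that of all control arrays. It thus partly followed the diet, so this fit cannot tell the diet and RNA integrity apart. The part of RNA integrity in the results was not tested further. The erythroid genes Hbb and Alas2, of cells that carry much transferrin receptor, were the 2 measured of 8 listed. Their mean log2 value per array was 8.64 to 9.86 with 1% wakame, 9.08 to 9.92 with 0.1% wakame and 8.83 to 9.48 in control. Kupffer cells are the macrophages that recycle iron, and 7 of 12 listed markers were measured. Their mean was 8.81 to 9.30 with 1% wakame, 8.77 to 9.39 with 0.1% wakame and 8.76 to 9.34 in control. In each list the ranges of the diets overlapped and none of these genes passed (limma). The part of these cells in the results for Tfrc was not tested.

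Among genes that work around these 4, lists chosen with earlier results of these data known held 135 genes, of which 45 were measured, the 4 genes among them. With 1% wakame against control 1 of the 45 passed, as did 1.67% of all measured probe sets, and 14 (31.1%) had an unadjusted p under 0.05, beside 18.5% of all. For 0.1% wakame against control and for 1% against 0.1% wakame 0 passed (limma), and 10 (22.2%) and 7 (15.6%) had an unadjusted p under 0.05, beside 11.5% and 6.76% of all. The median difference over all measured probe sets was −0.02 log2 for 1% wakame against control.

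The hepcidin list had 9 measured genes of 26, with 5 higher and 4 lower and a median of 0.04 log2 for 1% wakame against control. Smad1, which carries the BMP signal to the nucleus, was the gene that passed. It fell by 0.30 ± 0.06 log2 to 9.19 ± 0.05 with 1% wakame, against 9.49 ± 0.04 in control (SD, n = 4 each, limma adjusted p = 0.0375), and it no longer passed when any of the 8 arrays was left out (limma adjusted p from 0.0623 to 0.123). With 0.1% wakame it was at 9.30 ± 0.08, −0.18 from control (limma adjusted p = 0.231). Hjv, the BMP co-receptor, was at 0.04 ± 0.15, and Tfr2, the iron-sensing second transferrin receptor, at 0.15 ± 0.12. Id3, a direct target of BMP signals, was at −0.10 ± 0.09. Creb3l3, a stress-activated factor that can induce hepcidin in mouse liver, was at 0.35 ± 0.13 (limma adjusted p = 0.209).

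In the list for the interleukin-6 input, all 3 measured genes of 8 lay higher with 1% wakame than in control, with a median of 0.47 log2. None of the 3 passed (limma), and they are mRNA of receptor parts and a kinase, not a measure of signalling. Il6r, the receptor, averaged 9.61 ± 0.48 with 1% wakame and 8.31 ± 0.57 in control, a difference of 1.30 ± 0.34 (limma adjusted p = 0.0812). The 4 high arrays, at 9.05 or above, did not overlap with control, at 8.90 or below, while 5.22% of all measured probe sets lay higher without overlap. With 0.1% wakame Il6r averaged 9.41 ± 0.47, a difference of 1.10 ± 0.34 from control (limma adjusted p = 0.231). Between 1% and 0.1% wakame it differed by 0.20 ± 0.34 (limma adjusted p = 0.959). The partner of Il6r, Il6st or gp130, differed between 1% wakame and control by 0.47 ± 0.12 (limma adjusted p = 0.0794) in the brightest of its 3 measured probe sets. The kinase Tyk2 differed by 0.16 ± 0.12. Stat3 and its inhibitor Socs3 were flat.

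Little else of iron and zinc handling could be measured. Of 17 genes of iron uptake, transport and export only Tfrc and Steap4, a metal reductase at 0.04 ± 0.09, were measured, and the ferroportin gene Slc40a1 and the importer Slc11a2 were flat. Ncoa4, which sends ferritin to breakdown, was at 0.08 ± 0.06 as the 1 measured gene of 6 in iron storage. The iron regulatory protein genes Aco1 and Ireb2 were flat, and in their list of 8 the measured iron-sulfur genes Cisd2 and Iscu were at −0.14 ± 0.06 and −0.03 ± 0.09. Of 21 genes of zinc transport and sensing, Slc39a4, an importer, was at −0.30 ± 0.21 and Slc39a7, which releases zinc from the endoplasmic reticulum, at 0.20 ± 0.11. The zinc sensor Mtf1 and the exporter Slc30a1 were flat, as were Mt3 and Mt4. In copper handling 4 of 12 were measured, with ceruloplasmin (Cp) at −0.04 ± 0.04 and the chaperone Atox1 at 0.05 ± 0.07. All these values are for 1% wakame minus control, and none passed (limma).

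Heme genes had 9 measured of 21, with 5 higher and 4 lower and a median of 0.02 log2. Alad, the second enzyme of heme synthesis, was at 0.20 ± 0.09 (limma adjusted p = 0.246), Fech, which inserts the iron, at 0.27 ± 0.14, and Hmox1, which breaks heme down, at −0.01 ± 0.04. Hmox1 spanned only 8.36 to 8.44 log2 over all arrays, close to the flat probe sets, so its small difference may not be a measurement. The glucocorticoid responsive list, measured in 11 of 13, had 8 higher and 3 lower with a median of 0.56 for 1% wakame against control, and 9 higher and 2 lower with a median of 0.55 for 0.1% wakame against control, 2 comparisons that share the control arrays. In it Gadd45b, a stress-induced gene, was at 0.56 ± 0.16 with 1% wakame and 0.58 ± 0.16 with 0.1%, Tsc22d3, or GILZ, at 0.84 ± 0.34 and 1.42 ± 0.34, and Igfbp1, which binds insulin-like growth factors, at 1.28 ± 0.69 and 2.71 ± 0.69. Tat, tyrosine aminotransferase, was at −1.04 ± 0.48 with 1% wakame and 0.77 ± 0.48 with 0.1%. An unadjusted p under 0.05 was found for 5 genes with 1% wakame against control (Gadd45b, Tsc22d3, Fkbp5, Pck1 and Tdo2, all higher) and for 6 with 0.1% wakame against control (Gadd45b, Tsc22d3, Pck1, Tdo2, Igfbp1 and Per1, all higher), beside 18.5% and 11.5% of all measured probe sets. For 1% against 0.1% wakame the list had 3 higher and 8 lower with a median of −0.17, and Tat (−1.81 ± 0.48), the glucocorticoid receptor gene Nr3c1 (−0.44 ± 0.12) and Per1 (−0.35 ± 0.14) were the 3 genes with an unadjusted p under 0.05, beside 6.76% of all. None of this list passed in any of the 3 comparisons (limma).

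**Figure D5:**
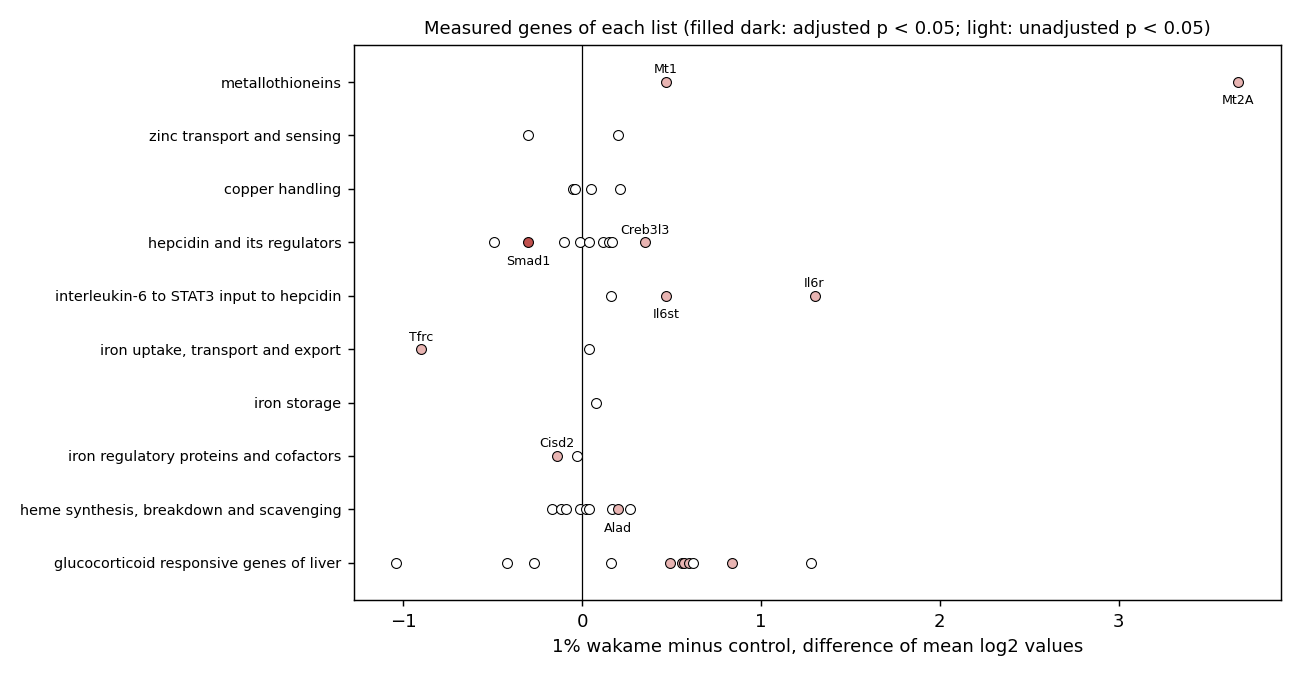
Difference of mean log2 values for 1% wakame minus control (horizontal axis) of each measured gene in 10 lists (rows), 1 point per gene from its brightest measured probe set. Smad1, at −0.30, is the 1 point with an adjusted p under 0.05, and the points with an unadjusted p under 0.05 are shaded light, named except in the glucocorticoid row.

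The genes whose pattern over the 12 arrays was most like that of each of the 4 were taken by the size of Pearson's r, as a description with no test. For Mt2A they were Pnpla3, a lipid hydrolase (−0.97), Cyp27a1, a sterol hydroxylase (0.97), Lactb2, a nuclease of mitochondria (−0.96), Tubb4b, a tubulin (−0.95), and Mt1 (0.95). For Mt1 they were Mt2A (0.95), Lactb2 (−0.94), Tubb4b (−0.93), Cgnl1, a junction protein (0.92), and Nifk, a nucleolar protein (−0.91), so Lactb2 and Tubb4b stood in both. With diet means removed the r of Mt2A with Pnpla3, Cyp27a1 and Lactb2 was −0.93, 0.93 and −0.96. That of Mt1 with Mt2A, Lactb2, Tubb4b, Cgnl1 and Nifk was 0.93, −0.89, −0.86, 0.73 and −0.82. Cgnl1 itself passed for 1% wakame against control, at 0.32 log2 (limma adjusted p = 0.0319). For Hamp they were Arg1, the arginase of the urea cycle (0.94), C1s, a complement protease (−0.91), Cox6b1, a subunit of respiratory complex IV (0.87), Mmadhc, of cobalamin handling (0.87), and Lasp1, an actin-binding protein (−0.86). Arg1 and C1s differed between 1% wakame and control by 0.05 and 0.00 log2. For Tfrc in 1388750_at they were Insig1, which holds back sterol synthesis (0.92), Deptor, an inhibitor of mTOR (−0.84), Crem, a transcription factor of the cAMP response (0.83), Mbnl2, a splicing factor (−0.81), and Hacd3, of fatty acid elongation (0.81). With diet means removed the r of Tfrc with Insig1, Deptor, Crem, Mbnl2 and Hacd3 was 0.89, −0.70, 0.79, −0.68 and 0.85. Each set holds the 5 largest values in size among many.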

How the data were processed

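The authors deposited 1 table of log2 values, 1 column per array, from an Affymetrix rat array hybridised with cRNA made from 100 ng of liver RNA, per the labels' protocols. That they are log2 was read from their range of 3.15 to 14.6. The submitters' processing notes name R 2.7.2, and how background was corrected and probes were normalized and summarised is not given there or in the labels. No counts exist, so the number of arrays limits the precision.

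Probe sets with an SD of at most 0.01 over the 12 arrays (27802) counted as unmeasured. A mean per diet was fitted to the other 3240 with limma 3.58.1 in R 4.3.3 (variance trend, no further normalization), tested on simulated data first, with Benjamini-Hochberg adjustment over all 3240. Single differences also had an exact two-sided permutation test, and correlations 100000 permutations. Symbols came from the platform annotation, and 20764 of 20832 single-symbol probe sets had their gene ID in the RefSeq table of GRCr8. Promoter sequences are RefSeq's, found for all 4 genes. List genes are shown by their brightest measured probe set, and those named have an unadjusted p under 0.05 in a comparison or the smallest of their list, with a few others added for their role after their values were seen. The members and lists were chosen with earlier results of these data known. Alternatives changed the probe sets fitted, normalization, variance model, covariates and arrays.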

Additional observations from a re-analysis of the deposited data

Results flagged for a closer look

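Mt1 on the array low 3 was 6.55 log2, while the other 3 arrays of the 0.1% diet lay between 6.79 and 6.80. The gap to its nearest neighbour was 0.928 of the range of the diet, above Dixon's 95% critical value for 4 samples. Mt2A was also lowest of its diet on low 3, at 7.53. It was the 1 such array in 15 groups checked (5 probe sets in 3 diets), and chance alone marks about 1 group in 20.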

How the results depend on the processing

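Of the differences of the 4 genes, none passed under the alternatives other than leaving out single arrays (12 for each probe set, but 11 for Tfrc in 1371113_a_at), and for 1% wakame against control all kept their direction, with adjusted p from 0.0533 for Mt1, 0.0787 for Mt2A, 0.0631 for Tfrc in 1371113_a_at and 0.172 in 1388750_at (limma). With single arrays left out, Mt1 ranged from 0.40 to 0.56 and Mt2A from 3.04 to 4.56, and both passed without control 3 alone. Hamp ranged from −0.79 to 0.73 for 1% wakame against control, from −0.71 to 0.98 for 0.1% wakame against control and from −0.81 to 0.48 for 1% against 0.1% wakame, where it was 0.30 with the Gapdh covariate. Tfrc in 1388750_at for 0.1% wakame against control was 0.012 with median centring, 0.029 with quantile normalization and 0.052 with the Gapdh covariate, and −0.18 to 0.16 with arrays left out. The cause was not tested.

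The count of 54 for 1% wakame against control was 9 with flat probe sets included, 10 with 1 probe set per gene, 29 with robust variances, 12 with the replicate block, 4 with the Gapdh covariate, 28 with only these 2 diets fitted and 7 to 36 with arrays left out, and leaving out any array but high 1 moved it by over 1.5 times. The count of 2 for 0.1% wakame against control was 5 with flat probe sets, 1 with either normalization, 0 with 1 probe set per gene, with the replicate block or with 2 diets, and 0 to 3 with arrays left out. The count of 0 for 1% against 0.1% wakame was 6 with flat probe sets and 0 to 1 with arrays left out. The F-test over the diets called 6 probe sets, 12 with flat ones, 13 at an SD limit of 0.1, 0 with 1 probe set per gene, 1 with the replicate block, 2 with the Gapdh covariate and 2 to 19 with arrays left out. Among pathway genes the count of 1 became 0 with flat probe sets, an SD limit of 0.1, 1 probe set per gene, either normalization, the replicate block, the Gapdh covariate or 2 diets, and 0 to 2 with arrays left out, the 2 being Mt1 and Mt2A without control 3. The replicate numbers gave no sign of pairing. Deviations of same-numbered arrays correlated at −0.115 to 0.0924, and 1 of 12 arrays matched its own number best. With the replicate block the differences were unchanged and the adjusted p for 1% wakame against control was 0.144 for Mt1, 0.205 for Mt2A and 0.144 for Tfrc in 1371113_a_at.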

Other observations

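Another probe set, 1371237_a_at, is annotated to 3 symbols, Mt1f, Ttr and Mt1, and so counts for no gene here. Its values were 8.76, 6.20, 12.50 and 8.98 log2 in control, 12.55, 13.18, 8.96 and 13.39 with 0.1% wakame, and 13.51, 14.11, 13.48 and 12.11 with 1% wakame. It averaged 13.30 ± 0.85 with 1% wakame and 9.11 ± 2.59 in control (SD, n = 4 each), a difference of 4.19 ± 1.29 (SE, limma adjusted p = 0.129, exact permutation p = 0.0571), and control 3 and low 3 again stood apart. It spanned 7.91 log2, against 0.78 for the Mt1 probe set, and correlated over the 12 arrays at 0.97 with Mt2A and 0.93 with Mt1. Ttr in its brightest single-symbol probe set was flat, at 13.96 log2 on all arrays. Which transcript 1371237_a_at measured was not tested.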
